A study of Mus musculus with 12 samples.

Results

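The genes of the cytosolic ribosome were followed in bone of 12 male mice aged 8 weeks, from RNA sequencing of tibia shafts flushed of marrow. The genes were chosen by symbol, as Rpl or Rps followed by the number or letter of a large or small subunit protein, with at least 10 counts in every mouse. The count table held 47069 genes, of which 81 matched by symbol and 80 also passed the minimum. The gene left out was Rpl10l, with 0 counts in every mouse. Among the 80 genes, 48 belonged to the large and 32 to the small subunit. There were 3 groups with n = 4 mice each. All groups were of mixed FVB/C57BL6 background. WT mice carried neither mutation and came from a parallel colony set up to match this background, so that colony and genotype cannot be told apart in comparisons with WT. Jrt;Sost-het mice carried the dominant Col1a1 Jrt allele, a splice site change that models severe osteogenesis imperfecta, and were heterozygous for Sost according to the study, where the labels give only Col1a1Jrt/+. Jrt;Sost-ko mice carried the same Jrt allele and lacked both Sost alleles (Col1a1Jrt/+ Sost-/-), in a colony shared with the Jrt;Sost-het mice. Col1a1 and Sost lie on the same chromosome, and this colony descends from a mouse in which the Jrt and Sost alleles had recombined.

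The cytosolic ribosome is built from ribosomal RNA and a fixed set of ribosomal proteins in nearly equal numbers, and the genes of these proteins are usually transcribed at matched levels. Their mRNAs begin with a run of pyrimidines, the TOP motif, which places their translation under control of mTORC1 and Larp1. In bone, osteoblasts secreting collagen depend on translation, and red cell precursors in the adjoining marrow are sensitive to the loss of single ribosomal proteins, as in Diamond-Blackfan anaemia. Sost encodes sclerostin, an inhibitor of Wnt signalling secreted by osteocytes.

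The ribosomal protein genes have compact promoters, and 59 of the 80 had an entry among the RefSeq promoters of GRCm38.p6, with 71 windows of 250 bases before to 50 bases after the start. The motif CCGGAAGT, which ETS factors such as GABP bind, stood on either strand in 16.9% of the windows, against 3.89% of 32851 windows of all genes. The motif GGGCGG, the core of the Sp1 site, stood in 57.7% of them against 35.7%, and AAGATGG, part of the YY1 site, in 15.5% against 6.34%. TATAAA, the TATA box, stood in 8.45% against 13.6%. None of these motifs contains another. A run of at least 8 bases C or T on the gene's strand, between 20 bases before and 30 bases after the start, was found in 47.9% against 19%. These matches are descriptions of sequence, and no binding was measured. Windows of 100 bases before to 25 bases after the start follow for 4 genes that carry the first motif in capitals, to show its distance from the start. Rps6 encodes the small subunit protein phosphorylated by S6 kinase, Rps18 a protein of the small subunit head, Rpl19 a protein of the exit tunnel region and Rpl41 the smallest protein of the large subunit. They lie at chr4:86857343-86857467 (minus strand), chr17:33955641-33955765 (minus strand), chr11:98026610-98026734 (plus strand) and chr10:128549144-128549268 (minus strand).
Rps6: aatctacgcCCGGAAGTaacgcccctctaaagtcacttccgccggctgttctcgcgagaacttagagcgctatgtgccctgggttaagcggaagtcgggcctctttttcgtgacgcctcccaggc
Rps18: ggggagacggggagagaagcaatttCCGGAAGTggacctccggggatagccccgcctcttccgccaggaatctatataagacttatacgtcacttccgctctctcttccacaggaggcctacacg
Rpl19: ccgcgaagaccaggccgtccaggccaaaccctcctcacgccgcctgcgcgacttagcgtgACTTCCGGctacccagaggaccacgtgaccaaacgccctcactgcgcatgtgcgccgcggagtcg
Rpl41: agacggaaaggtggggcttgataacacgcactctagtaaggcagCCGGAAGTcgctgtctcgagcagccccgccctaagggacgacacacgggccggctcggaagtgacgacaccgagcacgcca
The motif began 91 bases before the start in Rps6, 75 bases before it in Rps18, 40 bases before it in Rpl19 and 56 bases before it in Rpl41. In Rpl19 it lies on the opposite strand. Genes not printed had it at other distances, 73 bases before the start in Rps25 and 23 bases before it in Rpl37. It began after the start in Rpl26 (4 bases), Rpl11 (6 bases), Rpl31 (8 bases) and Rps27l (9 bases). The coding sequence of Rpl41 is shown whole because it is the shortest of the 80, with 78 bases for 25 residues, and start and stop codons are in capitals.
Rpl41 coding sequence: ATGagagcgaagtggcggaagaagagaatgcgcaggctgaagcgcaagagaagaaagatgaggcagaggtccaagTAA

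Libraries held between 24366061 and 44418863 reads counted on genes, from 28737276 to 44418863 in WT, from 24366061 to 29431764 in Jrt;Sost-het and from 28255411 to 37370099 in Jrt;Sost-ko mice. The targeted gene Sost had 16, 43, 19 and 10 counts in Jrt;Sost-ko mice and between 648 and 2764 counts in the other 8 mice. The bone markers were present, and all 12 osteoblast markers had at least 10 counts in every mouse. Markers of other tissues were present too. The summed CPM (gene counts scaled to a common library size with TMM over all 12 libraries) of 16 skeletal muscle markers ran from 33.3 in Jrt;Sost-ko mouse 4 to 33980 in WT mouse 4, that of 9 erythroid markers from 15710 to 31260 and that of 10 neutrophil markers from 16680 to 31090. In such bulk samples, fewer cells of a type and less RNA per cell cannot be told apart.

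Ribosomal protein genes took between 3.28% and 4.11% of the gene counts of a mouse. The shares were 3.87%, 4.1%, 3.79% and 3.42% in WT mice 1 to 4, and 3.36%, 3.3%, 3.85% and 3.38% in Jrt;Sost-het mice 1 to 4. They were 3.28%, 3.33%, 3.42% and 4.11% in Jrt;Sost-ko mice 1 to 4. Jrt;Sost-ko mouse 4 had the highest share of all 12 mice, while the other 3 mice of its group were close to Jrt;Sost-het mice 1, 2 and 4. The mean was 3.79% ± 0.282 for WT, 3.47% ± 0.254 for Jrt;Sost-het and 3.54% ± 0.388 for Jrt;Sost-ko mice (SD, n = 4 each), and the ranges overlapped. Large subunit genes took between 1.89% and 2.37% and small subunit genes between 1.39% and 1.75% of the counts.

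The genes moved together from mouse to mouse. Over the 12 mice the SD of a gene's log2 CPM had a median of 0.12, and the median of these SDs was 0.039 after the median of all 80 genes in each mouse was subtracted. After this step 74 genes had an SD under 0.1. The remaining 6 were Rpl3l, Rpl39l, Rpl35a, Rps4l, Rpl34 and Rpl30. The median log2 CPM of the 80 genes, relative to its mean over all mice, was 0.09, 0.18, 0.08 and -0.03 in WT mice 1 to 4. In Jrt;Sost-het mice it was -0.12, -0.12, 0.09 and -0.08. In Jrt;Sost-ko mice it was -0.14, -0.10, -0.06 and 0.21. The highest mouse was Jrt;Sost-ko mouse 4 for 50 genes and WT mouse 2 for 24 genes, whereas 25 genes each were lowest in Jrt;Sost-het mouse 2 and in Jrt;Sost-ko mouse 1. These same 2 high mice had the lowest muscle marker sums, 33.3 CPM in Jrt;Sost-ko mouse 4 and 253 CPM in WT mouse 2. Across the 12 mice, the median of the 80 genes had a Pearson's r of -0.631 (permutation p = 0.02, adjusted p = 0.02 over 2 relations) with the log2 muscle sum, and Spearman's rho was -0.224 (permutation p = 0.5, adjusted p = 0.5). Without these 2 mice, which were farthest from the median on the log2 scale of the muscle sum, r was 0.0866, so that the relation rests on them. With the group means removed, r over all 12 mice was -0.729. Of the marker lists, only the muscle sum was set against this median, and the adjustment does not cover that choice. WT mouse 2 also had the lowest osteoblast (27440 CPM) and highest neutrophil sum (31090 CPM) of all 12 mice. Jrt;Sost-ko mouse 4 had the lowest osteoblast (50210 CPM) and highest neutrophil sum (24790 CPM) of its group. The relation of these other sums to the median was not tested.

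**Figure D1:**
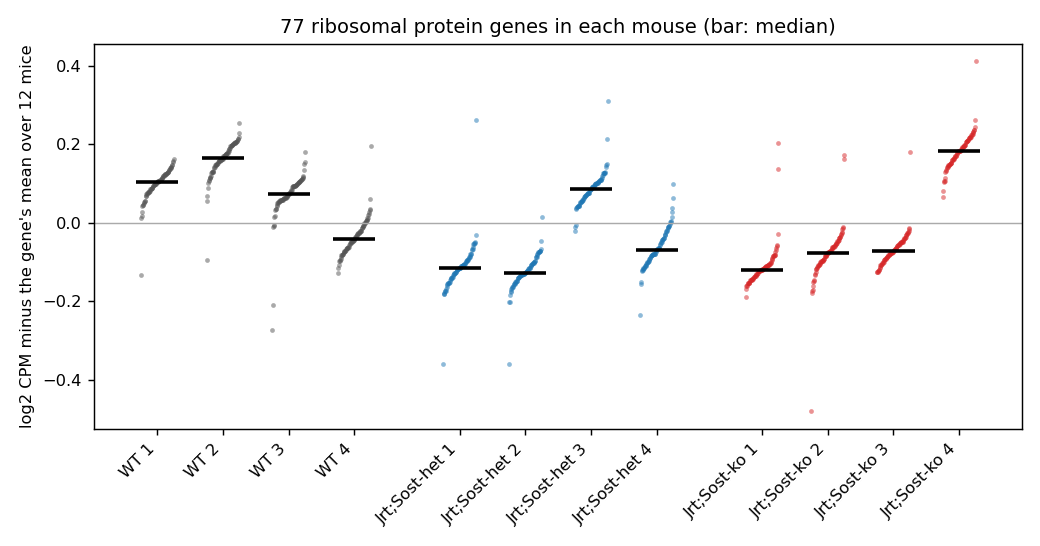
Each point is a ribosomal protein gene in a mouse, as log2 CPM minus the mean of that gene over all 12 mice; bars are medians, and colours are WT (grey), Jrt;Sost-het (blue) and Jrt;Sost-ko (red). The 77 genes shown leave out Rpl3l, Rpl39l and Rps4l, and within each mouse most genes lie close to the bar, with the highest bars in WT mouse 2 and Jrt;Sost-ko mouse 4.

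Levels of different genes were compared as CPM per kilobase of the shortest complete principal transcript in GENCODE M21. Over the 12 mice the highest were Rps14 of the small subunit platform with 1359 ± 96.1 and Rps12 of the small subunit head with 1267 ± 112 CPM per kb (SD, n = 12). Rplp1 of the acidic stalk, which recruits elongation factors, followed with 1218 ± 104, Rpl41 with 1133 ± 91.6 and Rps2, near the mRNA entry site, with 1092 ± 118 CPM per kb. The SDs of neighbours in this order overlapped. Down to Rpl5, at 225 ± 16.8 CPM per kb, 74 genes followed each other in small steps. The 6 below it were Rps27l, Rpl24, Rps20, Rpl3l, Rps4l and Rpl39l. Rps20 was at 90.1 ± 7.88 CPM per kb, but its only complete coding transcript in the annotation has 3706 bases for a coding length of 360 bases, so that a shorter mRNA would raise this level. Rpl24 was at 145 ± 10.4 CPM per kb. Rpl3l was at 18.3 ± 18.9, Rps4l at 14.7 ± 2.02 and Rpl39l at 5.61 ± 1.5 CPM per kb.

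**Figure D2:**
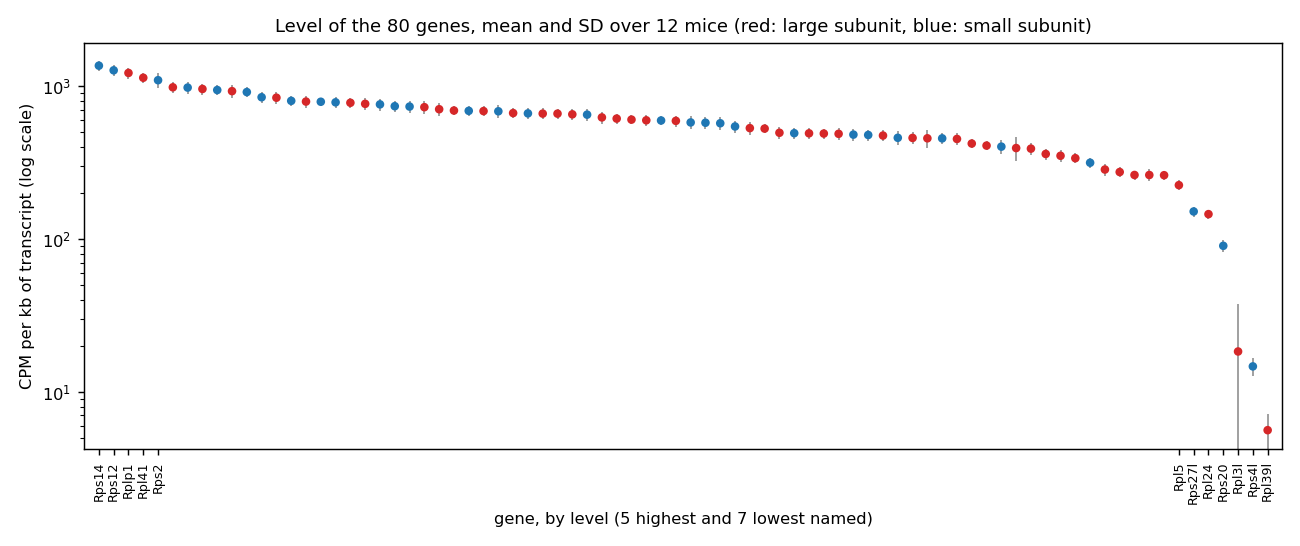
Mean level of each of the 80 genes over 12 mice in CPM per kb of transcript on a log axis, with bars of 1 SD (lower bars that reach below 0 are cut by the axis); large subunit genes are red and small subunit genes blue. Levels fall slowly from 1359 for Rps14 to 225 for Rpl5 and then drop to 18.3, 14.7 and 5.61 for Rpl3l, Rps4l and Rpl39l.

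Ribosomal protein genes have many processed copies in the mouse genome, which limits how reads can be placed. Of the 80 genes, 72 shared at least one 100-base window with an annotated transcript of another gene, and in 35 genes over 50% of windows were shared. Rps27 shared 98.4% of its windows, Rpl10 91.6%, Rps12 88.9% and Rpl24 80.1%, at ranks 20, 25, 2 and 76 of the 80 levels per kb. No window was shared in 8 genes, among them Rpl22, Rpl32, Rpl39l and Rpl3l. After the mouse median was subtracted, the median SD was 0.035 in these 8 genes and 0.037 in the 35 genes with over 50% shared. Between 20.3% and 25.2% of all records in a library were alignments to several places and counted on no gene. Copies named as ribosomal protein pseudogenes (271 symbols) held between 2263 and 5031 counts in a library, which is between 0.009% and 0.0113%.

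The first comparison, Jrt;Sost-ko versus Jrt;Sost-het mice, asks what the loss of Sost changes on the Jrt background. No ribosomal protein gene had an adjusted p under 0.05 in edgeR's quasi-likelihood test, where 0.00597% of 16739 genes were called, namely Sost itself. An unadjusted p under 0.05 was found for 1 of the 80 genes, Rpl35a, against 5.02% of all genes, and DESeq2 and limma-voom also called 0 of the 80, where they called 18 of 29174 and 0 of 16739 genes. Log2 fold changes were above 0 in 65 of the 80 genes, against 50.4% of all genes, with a median of 0.04 against 0.001 for all genes tested. The groups did not overlap in 0 of the 80 genes, where 1.79% of all genes were higher in every Jrt;Sost-ko mouse. Large and small subunit genes had medians of 0.04 and 0.03. The direction rested on Jrt;Sost-ko mouse 4, without which 72 genes were below 0 and the median was -0.05. It also turned to -0.03, with 67 genes below 0, when the muscle markers entered the fit as a covariate, and was -0.003 with limma-voom's sample weights. Among cell type markers, of which Sost alone was called, the lists differed in sign. Above 0 were 9 of 9 erythroid (median 0.11), 10 of 10 dividing cell (0.07), 11 of 12 osteoblast (0.295), 7 of 8 osteocyte (0.39) and 7 of 10 B cell markers (0.02). Below 0 were 16 of 16 muscle (-1.01), 8 of 8 chondrocyte (-1.74), 8 of 8 osteoclast (-0.08), 7 of 10 neutrophil (-0.09), 7 of 8 adipocyte (-0.15) and 4 of 5 epidermis markers (-0.18). Their part in the values of the ribosomal protein genes was not tested beyond the muscle covariate.

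By structural role, the 3 stalk genes Rplp0, Rplp1 and Rplp2 had log2 fold changes of 0.05 (standard error 0.0935), 0.01 (0.102) and 0.07 (0.0796). Rplp0 had 1236, 1231, 1349 and 1162 CPM in Jrt;Sost-het mice and 1193, 1234, 1226 and 1486 CPM in Jrt;Sost-ko mice, so that 3 of 4 knockout mice lay within the range of the other group. Rpl5 and Rpl11, which form the 5S RNP that binds Mdm2 when ribosome assembly fails, had values of 0.05 and 0.02. The p53 targets gave 7 of 13 genes above 0 with a median of 0.04, and 5 and 8 of 13 in Jrt;Sost-het and Jrt;Sost-ko against WT mice (medians -0.03 and 0.02), with 0 called. The 3 genes near the peptidyl transferase centre, Rpl3, Rpl8 and Rpl10, ranged from 0.02 to 0.08. The 8 genes of the exit tunnel ranged from -0.04 to 0.07 and the 14 of the small subunit head from -0.02 to 0.07. The 17 Diamond-Blackfan anaemia genes had a median of 0.03, and 0 were called. Rps27a, which is made as a fusion with ubiquitin, had 0.01 (95% confidence interval -0.198 to 0.217), and Rpsa, of the mRNA exit site, had 0.04 (-0.193 to 0.273).

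Of the 8 genes at the ends of this comparison, Rpl39l, Rpl35a, Rpl30, Rpl3l, Rpl34 and Rps4l were the 6 with an SD of at least 0.1 after the mouse median was subtracted. The largest positive values were Rpl39l (0.47, standard error 0.219), Rpl35a (0.36, standard error 0.15), Rpl30 (0.18, standard error 0.0803) and Rpl27 (0.10, standard error 0.0779). The largest negative values were Rpl3l (-1.03, standard error 0.997), Rpl34 (-0.21, standard error 0.126), Rps27 (-0.09, standard error 0.089) and Rps4l (-0.08, standard error 0.118). Each had an adjusted p of at least 0.901 in edgeR. Over 18 alternatives, the negative values ran from -1.53 to -0.00229 for Rpl3l, the latter without Jrt;Sost-het mouse 4, and from -0.321 (without Jrt;Sost-ko mouse 4) to -0.105 (without Jrt;Sost-ko mouse 2) for Rpl34. They ran from -0.153 (without Jrt;Sost-ko mouse 4) to -0.0218 (without Jrt;Sost-het mouse 3) for Rps27 and from -0.171 (without Jrt;Sost-het mouse 1) to -0.000116 (with the muscle covariate) for Rps4l. The positive values ran from 0.365 to 0.606 for Rpl39l and from 0.288 to 0.538 for Rpl35a. For Rpl30 they ran from 0.134 to 0.233 and for Rpl27 from 0.0302 to 0.138.

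**Figure D3:**
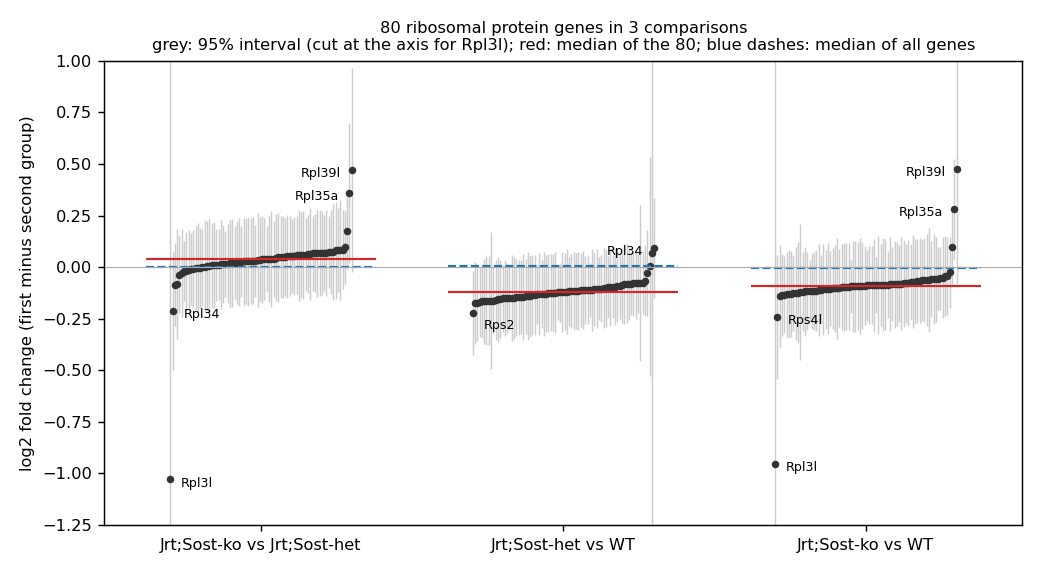
Log2 fold change of each of the 80 genes in 3 comparisons, sorted within each, with the 95% interval in grey (running past the axis for Rpl3l), the median of the 80 in red and the median of all genes tested as blue dashes. The red line lies at 0.04, -0.12 and -0.09, and most intervals include 0.

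Comparisons with WT ask how both Jrt groups stand against mice with neither mutation, and both use the same 4 WT libraries. In Jrt;Sost-het against WT mice, 0 of the 80 genes were called with edgeR, as were 0% of 16775 genes, and DESeq2 and limma-voom called 0 of the 80, where they called 4 of 30284 and 0 of 16775 genes. An unadjusted p under 0.05 was found for 1 of the 80, Rps2, against 2.14% of all genes. Leaving out single mice gave between 0 and 33 of the 80, the latter without WT mouse 4 (1591 of 16934 genes), and limma-voom gave 26 (770 of 16775 genes). Fold changes were below 0 in 77 of the 80 genes, against 48.7% of all genes, with a median of -0.12 against 0.004 for all genes. This median corresponds to 0.92 of the WT level. Large and small subunit genes each had a median of -0.12. The groups did not overlap in 0 of the 80 genes, against 0.799% of all genes lower in every Jrt;Sost-het mouse. Between 76 and 79 genes were below 0 when any single mouse was left out, with medians between -0.17 and -0.09.

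In Jrt;Sost-ko against WT mice, 0 of the 80 genes were called against 0.00583% of 17155 genes, again Sost alone, and 0 of the 80 with DESeq2 and with limma-voom, where these called 18 of 30573 and 2 of 17155 genes. Rpl35a had an unadjusted p under 0.05, against 3.89% of all genes. Leaving out single mice gave between 0 and 22 of the 80, the latter without Jrt;Sost-ko mouse 4 (1019 of 17500 genes). Fold changes were below 0 in 77 genes, against 50.9% of all genes, with a median of -0.09 (0.94 of the WT level) against -0.003 for all genes. The groups did not overlap in 0 of the 80 genes, against 1.11% of all genes lower in every Jrt;Sost-ko mouse. The median was -0.17 without Jrt;Sost-ko mouse 4 and -0.06 without Jrt;Sost-ko mouse 1.

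In Jrt;Sost-het against WT mice, the medians of the structural groups were -0.13 for the stalk, -0.11 for the 5S RNP, -0.11 for the exit tunnel, -0.12 for the small subunit head, -0.13 for the mRNA exit and platform and -0.14 for the peptidyl transferase neighbourhood. In Jrt;Sost-ko against WT mice they were -0.09, -0.07, -0.11, -0.10, -0.12 and -0.06. After adjustment no single ribosomal protein gene was called in either comparison. Rps2 had 1209, 1226, 1207 and 1101 CPM in WT mice, 983, 942, 1117 and 1006 CPM in Jrt;Sost-het mice and 982, 958, 1074 and 1277 CPM in Jrt;Sost-ko mice. The estimate for Rps2 on the log2 scale was -0.22 in Jrt;Sost-het (standard error 0.0885, adjusted p = 1 from edgeR; exact permutation test, two-sided p = 0.0571) and -0.14 in Jrt;Sost-ko mice (standard error 0.108). This exact test cannot give a two-sided p below 0.0286 for groups of 4. Rpl28, Rpl14 and Rps20 had the next lowest values in Jrt;Sost-het mice, with -0.17 each, and Rpl17 was at -0.14 in Jrt;Sost-ko mice. Rps6 had 382, 402, 377 and 332 CPM in WT, 313, 317, 378 and 332 CPM in Jrt;Sost-het and 324, 326, 335 and 409 CPM in Jrt;Sost-ko mice. WT mouse 4 lay within the range of both other groups. Rps19, the gene most often mutated in Diamond-Blackfan anaemia, had log2 fold changes of -0.13 and -0.07 in the same order, and Rpl41 had -0.15 and -0.07. All 17 Diamond-Blackfan anaemia genes were below 0 in Jrt;Sost-het mice (median -0.11), as were 16 of them in Jrt;Sost-ko mice (median -0.08), the exception being Rpl35a. In Jrt;Sost-het mice all 9 erythroid markers (median -0.22), all 10 neutrophil markers (median -0.08) and all 10 genes of dividing cells (median -0.11) were below 0 as well, with 0 called. Osteoclast markers were below 0 in 7 of 8 (median -0.09) and epidermis markers in 5 of 5 tested (median -3.30), which were high in WT mice 3 and 4 alone (sums of 170 and 722 CPM, against 8.07 to 19.1 CPM in the other 10 mice). Markers of other cells had the opposite sign, with 12 of 12 osteoblast (median 0.19), 9 of 10 B cell (0.08), 8 of 8 adipocyte (0.59) and 8 of 8 chondrocyte markers (0.40) above 0, and osteocyte and muscle markers were above 0 in 4 of 8 and 9 of 16. In Jrt;Sost-ko against WT mice, 7 of 9 erythroid, 10 of 10 neutrophil, 7 of 10 dividing cell, 7 of 8 osteoclast, 8 of 8 chondrocyte and 5 of 5 epidermis markers were below 0. Above 0 were 12 of 12 osteoblast (median 0.47), 6 of 8 osteocyte, 9 of 10 B cell (0.14) and 8 of 8 adipocyte markers (0.42). Chondrocyte sums were 2922 CPM in WT mouse 4 and 3683 CPM in Jrt;Sost-het mouse 1, against 86.9 to 892 CPM in the other 10 mice. The part of these cells in the lower values of the ribosomal protein genes was not tested.

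Rpl35a, which encodes a large subunit protein on chr16:33056453-33060189 (plus strand, 5 exons), split the mice in a way that crossed the groups. It had 173, 178, 164 and 218 CPM in WT mice, 148, 148, 236 and 161 CPM in Jrt;Sost-het mice and 209, 213, 215 and 253 CPM in Jrt;Sost-ko mice. From its log2 CPM the median of the 80 genes in the same mouse was subtracted, and the difference was centred on its own mean over the 12 mice. This centred difference was between 0.20 and 0.28 in all 4 Jrt;Sost-ko mice, 0.23 in WT mouse 4 and 0.22 in Jrt;Sost-het mouse 3. It was between -0.29 and -0.16 in the other 6 mice, and no mouse lay between these ranges. The log2 fold change was 0.36 against Jrt;Sost-het mice (95% confidence interval 0.0221 to 0.70, adjusted p = 0.901 from edgeR; exact permutation test, two-sided p = 0.114) and 0.28 against WT mice (0.041 to 0.526, adjusted p = 1; exact p = 0.114). Over 18 alternatives it stayed between 0.29 and 0.54 against Jrt;Sost-het and between 0.22 and 0.38 against WT mice, never with an adjusted p under 0.437. Of the windows of its transcript, 34.2% also occur in other transcripts.

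Rpl34 and Rpl30, on chr3:130726831-130730398 and chr15:34440505-34443640 (both minus strand), also departed from the rest in single mice. Rpl34 had 233, 246, 179 and 222 CPM in WT mice, 259, 219, 239.9 and 216 CPM in Jrt;Sost-het mice and 204, 155, 204 and 244 CPM in Jrt;Sost-ko mice. Its centred difference from the mouse median was -0.36 in WT mouse 3 and -0.38 in Jrt;Sost-ko mouse 2 but 0.38 in Jrt;Sost-het mouse 1. Rpl30 had 207, 212, 204 and 195 CPM in WT mice, 185, 182, 209.6 and 195 CPM in Jrt;Sost-het mice and 235, 230.1, 191 and 214 CPM in Jrt;Sost-ko mice. The centred difference of Rpl30 was 0.35 and 0.27 in Jrt;Sost-ko mice 1 and 2. In every other mouse it was between -0.142 (Jrt;Sost-ko mouse 4) and 0.005. For Rpl30, 53.5% of the windows are shared with other transcripts and an annotated gene overlaps it on the opposite strand, whose reads cannot be told apart where counting ignores strand.

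**Figure D4:**
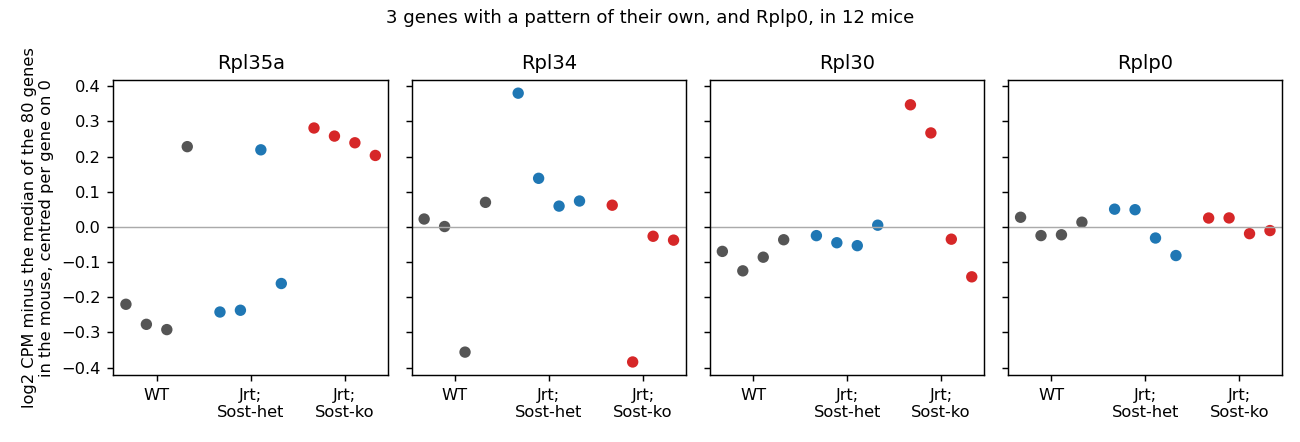
Log2 CPM relative to the median of the 80 genes in the same mouse, centred on 0 over 12 mice, for Rpl35a, Rpl34, Rpl30 and, for comparison, the stalk gene Rplp0; points are single mice of WT (grey), Jrt;Sost-het (blue) and Jrt;Sost-ko (red). Rpl35a forms a set of 6 high mice between 0.20 and 0.28, with all Jrt;Sost-ko mice in it, while Rplp0 stays near 0 in every mouse.

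Some ribosomal proteins have a second gene, and of these paralogs Rpl3l, Rpl39l and Rps27l were among the 80 genes. Rpl3l replaces Rpl3 in the ribosomes of skeletal and cardiac muscle. It had 7.11, 1.37, 38.1 and 71.3 CPM in WT mice, 8.05, 14.9, 23 and 77.9 CPM in Jrt;Sost-het mice and 28.5, 3.18, 28.1 and 1.08 CPM in Jrt;Sost-ko mice. Its share of the pair Rpl3 and Rpl3l per kb ran from 0.124% in Jrt;Sost-ko mouse 4 to 10.6% in Jrt;Sost-het mouse 4. Across the 12 mice its log2 CPM followed the log2 sum of the skeletal muscle markers, with a Pearson's r of 0.947 (p = 1e-05 by permutation, as low as 100000 draws allow, adjusted p = 2e-05 over 2 relations) and Spearman's rho = 0.965 (permutation p = 1e-05, adjusted p = 2e-05). Leaving out Jrt;Sost-ko mouse 4 and WT mouse 2, whose log2 muscle sums were most extreme, r was 0.977. With the group means removed, r over all 12 mice was 0.941. The log2 fold changes of Rpl3l were -1.03, 0.07 and -0.95 in the comparisons of Jrt;Sost-ko with Jrt;Sost-het, Jrt;Sost-het with WT and Jrt;Sost-ko with WT mice, with standard errors of 0.997, 1.07 and 1.23. These values moved with single mice, and over 18 alternatives they ran from -1.53 to -0.00229 (without Jrt;Sost-het mouse 4), from -0.96 (without Jrt;Sost-het mouse 4) to 0.98 (without WT mouse 4) and from -1.45 to -0.00768 (with the muscle covariate). Without WT mouse 4 the last of these comparisons gave -0.033. All 16 muscle markers were below 0 in both comparisons of Jrt;Sost-ko mice, with medians of -1.01 and -0.93 and 0 called.

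**Figure D5:**
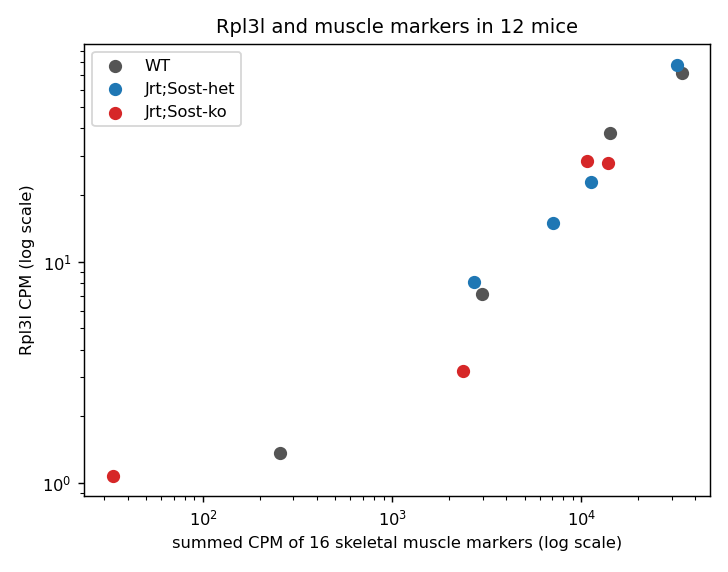
CPM of Rpl3l against the summed CPM of 16 skeletal muscle markers in 12 mice, both axes logarithmic, coloured by group. Points of all groups follow the same rise, from Jrt;Sost-ko mouse 4 (1.08 against 33.3 CPM) to WT mouse 4 (71.3 against 33980 CPM).

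Rpl39l, the paralog of the exit tunnel gene Rpl39, is best known from male germ cells. The coding sequences of both have 156 bases, are identical at 133 of them (85.3%), and are printed with the differing bases in capitals to show that reads can tell the genes apart along the coding sequence. Rpl39 lies at chrX:37082520-37085402 (minus strand) and Rpl39l at chr16:10170226-10174911 (plus strand).
Rpl39: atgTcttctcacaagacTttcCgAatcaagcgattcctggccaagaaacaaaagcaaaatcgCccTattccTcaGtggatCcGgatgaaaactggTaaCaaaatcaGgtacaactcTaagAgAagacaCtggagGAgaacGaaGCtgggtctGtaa
Rpl39l: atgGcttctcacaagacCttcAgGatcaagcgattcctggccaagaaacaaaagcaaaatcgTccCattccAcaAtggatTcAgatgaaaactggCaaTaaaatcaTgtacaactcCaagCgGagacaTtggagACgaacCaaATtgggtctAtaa
Rpl39l had 2.27, 2.25, 2.63 and 3.77 CPM in WT mice, 3.48, 2.71, 2.67 and 2.07 CPM in Jrt;Sost-het mice and 3.89, 4.49, 4.14 and 2.61 CPM in Jrt;Sost-ko mice, from 50 to 155 counts. In Jrt;Sost-ko mice 1 to 3 it was above every other mouse, and mouse 4 was within the range of the other groups. The log2 fold change was 0.47 against Jrt;Sost-het (95% confidence interval -0.0256 to 0.967, adjusted p = 0.901 from edgeR) and 0.48 against WT mice (-0.0749 to 1.03, adjusted p = 1). Over 18 alternatives these values stayed between 0.37 and 0.61 and between 0.38 and 0.67. Rpl39 itself had -0.02 (standard error 0.0652) and -0.12 (standard error 0.0659).

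Rps27l, a p53 target whose coding sequence is 76.1% identical to that of Rps27, had 77.4 ± 3.65 CPM in WT, 73.1 ± 5.28 CPM in Jrt;Sost-het and 75.7 ± 7.83 CPM in Jrt;Sost-ko mice (SD, n = 4 each). Rps27 had 271, 265 and 249 CPM on average in the same order. Rps4l, which the annotation lists as a transcribed processed pseudogene, had 12.7 ± 1.91, 11.3 ± 1.45 and 10.7 ± 0.875 CPM, with log2 fold changes of -0.16 and -0.24 against WT mice (standard errors 0.145 and 0.131). The main genes of the other pairs, Rpl22, Rpl7, Rpl10, Rpl36a and Rps4x, had an SD under 0.1 after the mouse median was subtracted.

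Other genes of translation were described beside the ribosomal protein genes, by lists. Ribosomal proteins whose symbols fall outside the rule, such as Fau, were above 0 in 6 of 6 tested genes in Jrt;Sost-ko versus Jrt;Sost-het mice (median 0.06) and below 0 in 6 of 6 in Jrt;Sost-het against WT mice (median -0.09). Mitochondrial ribosomal proteins had 38 of 76 genes above 0 in the first comparison, with a median of -0.0002, and 62 of 76 below 0 in the second, with a median of -0.05. The other TOP transcripts were above 0 in 15 of 15 genes (median 0.08) in the first and below 0 in 14 of 15 (median -0.12) in the second. Elongation factors were above 0 in 7 of 8 (median 0.08) and below 0 in 8 of 8 (median -0.11). Initiation factors were above 0 in 28 of 29 (median 0.12) in the first, where the median of ribosomal protein genes was 0.04, and below 0 in 28 of 29 (median -0.09) in the second. The snoRNA host genes without protein were above 0 in 1 of 6 (median -0.02) in the first and in 4 of 6 (median 0.01) in the second. In Jrt;Sost-ko against WT mice, where 77 of 80 ribosomal protein genes were below 0, so were 10 of 29 initiation factors (median 0.05), 6 of 8 elongation factors (-0.03), 12 of 15 other TOP transcripts (-0.03), 57 of 76 mitochondrial ribosomal proteins (-0.05), 5 of 6 ribosomal proteins outside the rule (-0.05) and 3 of 6 snoRNA host genes (-0.01). No gene of these lists was called by edgeR in any comparison. The lists were not refitted without Jrt;Sost-ko mouse 4, on which the direction of the 80 genes rested in the first comparison.

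Larp1, which binds TOP mRNAs, averaged 204 CPM in Jrt;Sost-ko and 172 CPM in Jrt;Sost-het mice. Its difference was 0.24 on the log2 scale, with a standard error of 0.0801 and an adjusted p of 0.901 in edgeR. The groups did not overlap for Larp1, Larp4 and Heatr3, which were higher in every Jrt;Sost-ko mouse, as were 1.79% of all genes. By list, this held for 2 of 13 mTORC1 and TOP regulators, 1 of 6 chaperones of ribosomal proteins and 4 of 29 initiation factors. Myc, an activator of ribosome genes, averaged 55.9 and 41 CPM, with a difference of 0.45 (standard error 0.137, adjusted p = 0.901), and its groups overlapped. Of the 13 genes of the mTORC1 and TOP regulator list, 8 were above 0, with a median of 0.01, and 6 and 7 were above 0 in Jrt;Sost-het and Jrt;Sost-ko against WT mice (medians -0.04 and 0.02). The 6 dedicated chaperones of ribosomal proteins were all above 0 in Jrt;Sost-ko mice against Jrt;Sost-het mice (median 0.13) and against WT mice (median 0.08), and all below 0 in Jrt;Sost-het against WT mice (median -0.08), with 0 called. Heatr3, which carries Rpl5, had 0.29 (standard error 0.066, adjusted p = 0.901) and Grwd1, which binds Rpl3, had 0.34 (standard error 0.121, adjusted p = 0.901) against Jrt;Sost-het mice.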

How the data were processed

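RNA of tibia shafts from 12 mice (4 per group) was sequenced once per mouse after poly(A) selection. Read pairs were mapped by the authors with STAR against GRCm38, and raw counts per Ensembl gene were deposited; the counting tool, its strand setting and its annotation are not given in the sources used here, and reads aligned to several places were not counted on genes. Deposited tables of the authors' comparisons (log2 fold changes and p-values) were not used. Per the labels, groups follow genotype, and mice are numbered 1 to 4 in the order of the labels, which pairs no mice. Models were fitted per pair of groups (8 mice) in R 4.3.3 with edgeR 4.0.16 (TMM, filterByExpr, quasi-likelihood test), with Benjamini-Hochberg adjustment over all genes at 0.05. A prior count of 2 was added for log2 CPM. Exact permutation over 70 arrangements was used for single genes and 100000 permutations for 2 correlations. Alternatives used DESeq2 1.42.0 and limma 3.58.1, other scalings, filters and samples. Transcripts came from GENCODE M21 and promoters from RefSeq. The functions were tested on simulated data. The genes and lists were chosen with earlier results of these data known. Genes named were the 4 largest rises and falls per comparison, the 5 most and least abundant per kilobase, paralog pairs, 10 fixed genes and members of the lists. Some results for single genes are not reported here.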

Additional observations from a re-analysis of the deposited data

Results flagged for a closer look

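The values of 34 genes and the median of the 80 genes were examined in each of the 3 groups of 4 mice, 105 sets in all. In 17 sets, all of single genes, 1 mouse lay apart from the rest, with a gap to its nearest neighbour, as a share of the range of the group, above Dixon's critical value of 0.829. By chance about 1 in 20 would do so, and they are not independent, since they come from the same mice. In Jrt;Sost-ko mice the single mouse was mouse 4, highest in each case, with gaps of 0.918 for Rps27, 0.906 for Rpsa, 0.895 for Rpl22, 0.87 for Rpl14, 0.869 for Rps6, 0.867 for Rpl27, 0.859 for Rplp0, 0.857 for Rpl35a, 0.852 for Rps27l, 0.842 for Rpl17, 0.838 for Rps4x and 0.837 for Rps19. This mouse also had the lowest muscle marker sum of all 12 mice (33.3 CPM) and the lowest osteoblast marker sum of its group (50210 CPM). The part of these sums in its values was not tested, beyond the muscle covariate and the muscle relation over the 12 mice. In Jrt;Sost-het mice mouse 3 was highest, with gaps of 0.854 for Rpl14, 0.849 for Rpl3, 0.847 for Rpl35a and 0.844 for Rps4x. In WT mice Rps2 was lowest in mouse 4, with a gap of 0.847, and this mouse had the highest muscle marker sum (33980 CPM).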

How the results depend on the processing

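None of the 80 genes was called in any of the 3 comparisons under any of the 18 alternatives to each fit, and no median of the 80 moved by more than the SD between mice. With all 18 alternatives the medians stayed below 0 in both comparisons with WT. In Jrt;Sost-ko versus Jrt;Sost-het mice the median turned below 0 with limma-voom (-0.003), with the muscle covariate, which was chosen after seeing the data (-0.03), and without Jrt;Sost-ko mouse 4 (-0.05). Among 990 values under alternatives none crossed the threshold, and 41 values of single genes changed sign. In Jrt;Sost-ko versus Jrt;Sost-het mice, limma-voom gave log2 fold changes of -0.0182 for Rpl10, -0.0121 for Rpl7, -0.0182 for Rpl36a and -0.0348 for Rps4x, and the muscle covariate gave -0.0108 for Rpl3, -0.056 for Rpl10, -0.0296 for Rpl22, -0.0519 for Rpl7, -0.035 for Rpl36a, -0.06 for Rps4x and -0.00634 for Rps27l. With the muscle covariate, Rpl3l was at -0.0739 and Rpl39l at -0.0171 in Jrt;Sost-het against WT mice. Leaving out each mouse in turn, the ranges in Jrt;Sost-ko versus Jrt;Sost-het mice were -0.0191 to 0.134 for Rpl3, -0.0543 to 0.0505 for Rpl10, -0.0693 to 0.0209 for Rpl39, -0.0407 to 0.0736 for Rpl22, -0.0579 to 0.057 for Rpl7, -0.0536 to 0.0886 for Rpl36a, -0.0691 to 0.0522 for Rps4x and -0.0301 to 0.0848 for Rps27l. In Jrt;Sost-het against WT mice they were -0.959 (without Jrt;Sost-het mouse 4) to 0.984 (without WT mouse 4) for Rpl3l, -0.13 to 0.196 for Rpl39l and -0.097 to 0.026 for Rps27, and in Jrt;Sost-ko against WT mice -0.103 to 0.00445 for Rps27l. The cause was not tested. Unadjusted p-values under 0.05 were more frequent under some settings, for the 80 genes and for all genes. In Jrt;Sost-het against WT mice (1 of the 80 and 359 of 16775 as reported) they were 33 and 1591 of 16934 without WT mouse 4, 16 and 536 of 17050 without Jrt;Sost-het mouse 3, 14 and 592 of 30284 with DESeq2 and 26 and 770 of 16775 with limma-voom. In Jrt;Sost-ko against WT mice (1 of the 80 and 668 of 17155) they were 35 and 1875 of 17155 with the muscle covariate, 22 and 1019 of 17500 without Jrt;Sost-ko mouse 4 and 20 and 1540 of 17155 with limma-voom. The mice carry no numbers in the labels that pair them across groups. With 4 mice per group, the standard error of a single gene had a median between 0.0818 and 0.0904. Counts of Rpl39l (50 to 155) and Rpl3l (from 33) are low.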
